A study of Mus musculus with 43 samples.

Results

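The abundance of sgRNAs in CD8+ T cells recovered from the liver of IgG-treated, tumour-bearing mice was compared with their abundance in the same kind of cells on the day of transfer (T0). The comparison takes 5 of the 41 libraries that carry values, namely both liver libraries of IgG-treated mice (replicates 2 and 3) and all 3 T0 libraries, and it covers every one of the 2078 genes that the library targets. The study ran the screen to find metabolic pathways that hold back CD8+ T cells in pancreatic cancer under immunotherapy. Cells were taken from the primary tumour, metastatic sites and lymphoid organs.

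All cells were OT-I T cells with a Cas9 knock-in, transduced with a lentiviral library of 10390 gene-specific sgRNAs, 5 a gene, and 250 nontargeting sgRNAs, on a vector whose CD90.1 cassette marks transduced cells. T0 is CD90.1+ cells kept from the in vitro culture when the others were injected. The liver cells were sorted as CD90.1+ OT-I cells 7 days after transfer from Rosa26-Cas9 recipients that carried KPC_OVA, a pancreatic cancer line expressing ovalbumin, in the pancreas, and that received control IgG from rat serum. Anti-PD-1 replaced IgG in a parallel arm, from which 1 liver library carries values. OT-I cells have a single T cell receptor and ovalbumin is an introduced antigen, so that neither a diverse repertoire nor a native tumour antigen was tested. The labels name the liver, and the series' text calls the tissue liver metastasis. How many cells or animals stand behind a library is not given in the sources used here. The replicate numbers do not say whether cultures or mice were separate, so p-values measure only spread between libraries. The test used below takes that spread from 29 libraries of 11 groups, not from the liver IgG and T0 libraries alone. What was sequenced is genomic DNA, which offers no expression markers to check the sorted cells by.

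A pooled knockout screen reads fitness from representation. A T cell that loses a gene it needs divides less or dies, and its sgRNA becomes rarer among the recovered cells, whereas loss of a gene that restrains T cells lets its sgRNA become more common. Activated CD8+ T cells divide rapidly and build ribosomes, nucleotides, lipids and glycoproteins at a high rate, while the phosphoinositide 3-kinase (PI3K) and diacylglycerol pathways relay signals from the T cell receptor. Fewer surviving cells, slower division and poorer entry into the liver would each lower an sgRNA and cannot be told apart here.

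The deposited signal of each sgRNA was taken as log2(value + 1), the nontargeting median of the same library was subtracted, and the 5 sgRNAs of a gene were averaged to give its level, so that a level of 0 is that of a typical nontargeting sgRNA. A change is the mean level in the liver IgG libraries minus the mean in T0, in log2 units, with its standard error from limma, and a gene is called where its p adjusted over all genes by the Benjamini-Hochberg method is at most 0.05. No sgRNA sequence stands in the files used here, so sgRNAs appear by gene.

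The libraries differed in more than their treatment. The nontargeting sgRNAs, which should not respond to selection, had a standard deviation of 1.08 to 1.11 log2 units in T0 and of 2.06 and 2.12 in liver replicates 2 and 3. An sgRNA signal under 10 was held by 0.103% to 0.132% of sgRNAs in T0 and by 10.7% and 13.4% in the liver libraries. In liver replicate 3, 19 of the 250 nontargeting sgRNAs were under 10, against 11 in replicate 2 and 4 or 5 in T0. Read depth is unknown, since the deposited values are normalised. Over genes, the levels of the liver libraries correlated with r = 0.82 (n = 2078 genes, which share sgRNA design and are not independent). Among the T0 libraries replicate 3 stood apart, with r = 0.50 and 0.59 to replicates 1 and 2, which correlated with r = 0.83. Levels in T0 replicate 1 correlated with those of the liver libraries at r = 0.64 and 0.59, and levels in T0 replicate 3 at r = -0.06 and -0.14. Its ribosomal protein genes had a median level of 0.97, against -0.30 and -0.02 in T0 replicates 1 and 2.

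Far more genes fell than rose in the liver. Against T0, 272 of 2078 genes (13.1%) were lower and 2 (0.0962%) were higher, and the median change over all genes was -0.44. These shares are the base for every list count below. The genes that fell encode above all ribosomal proteins, RNA polymerase and proteasome subunits, the respiratory chain, nucleotide synthesis and the glycan precursor pathway. The 2 that rose were *Pik3cd* and *Pik3r1*, the catalytic p110-delta and regulatory p85-alpha subunits of PI3K. Before adjustment, 369 genes were lower and 5 higher at p under 0.05.

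Among the 272 genes, the median change was -4.41 and the smallest was -2.25. Both liver libraries lay below every T0 library in all 272, and at least 4 of 5 sgRNAs were lower in 271. Calls rest on the mean of those same sgRNAs, so agreement between them is no separate support. Over all genes, both liver libraries lay below every T0 library in 949 (45.7%) and above every T0 library in 158 (7.6%), so the lack of overlap by itself did not mark a gene. The liver libraries were 0.755 log2 units apart in the median gene and more than 2 units apart in 166 genes, 47 of them among the 272. In 114 of the called genes at least 3 sgRNAs were under a signal of 10 in both liver libraries, in 14 all 5 were, and in 21 none was. Of the called genes, *Gm38481* at -2.39 had the highest adjusted p, 0.0496, and *Gcsh*, of the glycine cleavage system, at -3.28 with a larger standard error of 1.13, was the first outside at 0.0523. *Gm38481* was not called without any one of the 5 libraries (adjusted p from 0.0758 to 0.219). Both names were taken from that rank.

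**Figure D1:**
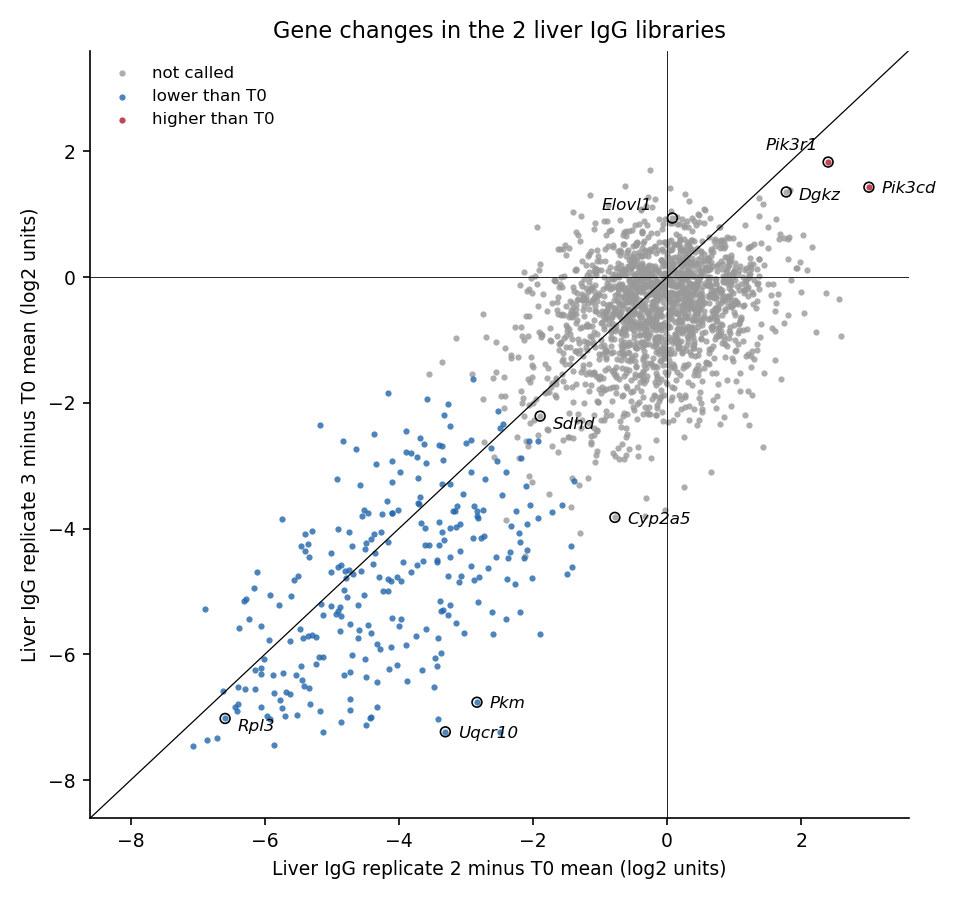
Change of each of the 2078 genes against the T0 mean in liver IgG replicate 2 (x axis) and replicate 3 (y axis), in log2 units, with the line of equal change; blue points were called lower, red points higher and grey points neither. The called genes lie in the lower left, *Pik3cd* and *Pik3r1* at the upper right, and *Pkm* and *Uqcr10* are examples of genes far lower in replicate 3 than in replicate 2.

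Genes that build ribosomes showed the largest loss. All 19 cytosolic ribosomal protein genes of the library fell, with a median change of -6.24 against -0.44 over all genes, and the least affected of them changed by -3.91. *Rpl3*, a protein of the large ribosomal subunit, had a level of -0.65, -0.46 and 0.61 in T0 replicates 1, 2 and 3, and of -6.76 and -7.19 in liver replicates 2 and 3. Its change was -6.81 ± 0.64 (SE, adjusted p = 6.21e-09). In deposited signal, its 5 sgRNAs ran from 125 to 494 in T0, from 0.0753 to 0.423 in liver replicate 2, and all 5 were listed at 0 in replicate 3. A level of -7.19 is the lowest that replicate 3 can give, so changes near -7 record that the sgRNAs were no longer seen and have no order among themselves.

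*Rpl9*, also of the large subunit, had levels of -0.72, -0.61 and 0.74 in T0 and of -6.17 and -7.19 in the liver, a change of -6.48 ± 0.64 (adjusted p = 9.67e-09). Others at the low end were *Rpl27* at -6.65, *Rps13* at -6.64, *Rps19* at -6.61, *Rps7* at -6.59, *Rpl30* at -6.48 and *Rpl36* at -6.46, all of them structural proteins of the ribosome. Of the 95 sgRNAs against this list, 72 were under a signal of 10 in both liver libraries, and none was in any T0 library. Over all genes, 231 in place of 272 were called lower without T0 replicate 3.

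**Figure D2:**
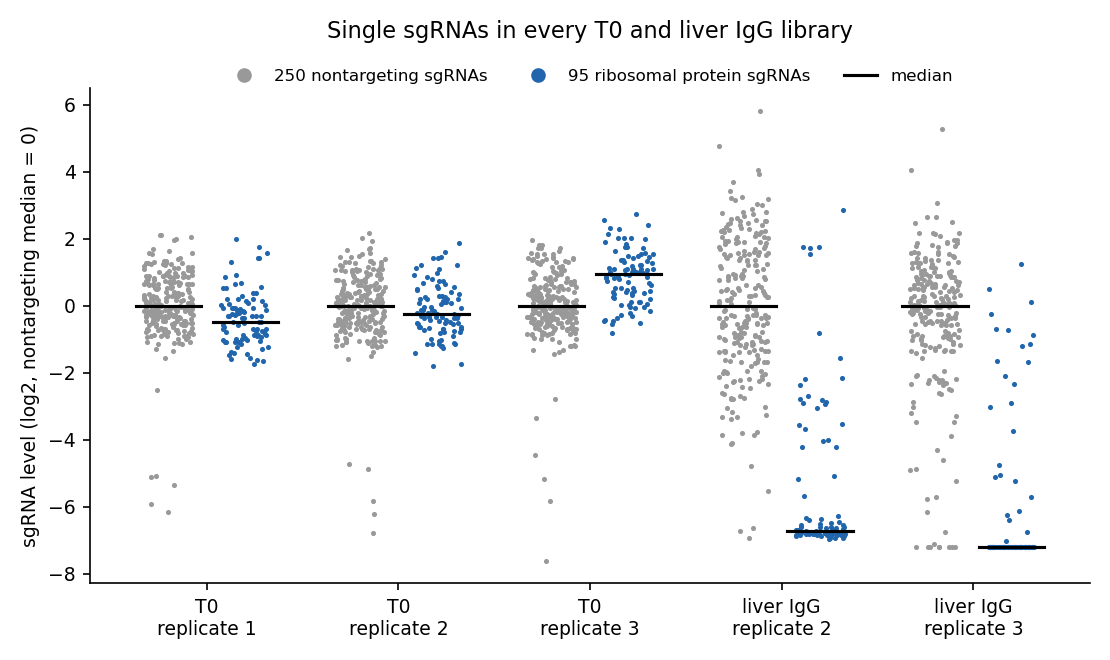
Level of each nontargeting sgRNA (grey, 250) and each sgRNA against a cytosolic ribosomal protein gene (blue, 95) in every T0 and liver IgG library, in log2 units with the nontargeting median of the library at 0; bars are medians. The ribosomal protein medians are -0.47, -0.24 and 0.96 in T0 and -6.71 and -7.19 in the liver, and the nontargeting sgRNAs spread more widely in the liver than in T0.

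Transcription and protein turnover followed. Of 28 subunits of RNA polymerases I, II and III, 25 fell, with a median of -4.53. *Polr1d*, a subunit that polymerases I and III share, had levels of -0.08, -0.05 and 0.63 in T0 and of -4.96 and -5.87 in the liver, a change of -5.59 ± 0.70 (adjusted p = 3.9e-07). *Polr1b*, the second-largest subunit of polymerase I, changed by -6.42, *Polr2g* by -6.30 and *Polr2l* by -6.20, the latter a small subunit common to all 3 enzymes. The 3 members not called were all of polymerase III: *Polr3f* at -2.03 (adjusted p = 0.178), *Polr3g* at -1.31 (adjusted p = 0.24) and *Polr3gl* at -0.44 (adjusted p = 0.958), the last 2 being paralogous forms of one subunit. Their names were added after their values were seen.

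All 10 proteasome subunits of the library fell, with a median of -4.92. The proteasome degrades ubiquitin-tagged proteins. *Psmb3*, of its core particle, had levels of -0.57, 0.02 and 0.96 in T0 and of -6.58 and -7.19 in the liver, a change of -7.02 ± 0.78 (adjusted p = 4.53e-08). *Psmb2*, also of the core, changed by -5.73 and *Psmc4*, an ATPase of the regulatory cap, by -5.69. The 4 genes of the COP9 signalosome, a related complex that removes the NEDD8 tag from ubiquitin ligases, were between -2.17 and -0.36, and none was called. Of aminoacyl-tRNA synthetases, which charge tRNAs, the library held 2 cytosolic enzymes, *Mars* at -5.38 and *Eprs* at -4.999, and 2 mitochondrial ones, *Mars2* at -5.81 and *Ears2* at -5.22. All 4 fell.

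The respiratory chain fell in part. Complex I, which takes electrons from NADH, had 22 of 38 genes lower with a median of -3.08, complexes III and IV 15 of 32 with a median of -1.99, and the ATP synthase 8 of 15 with a median of -2.55. In complex I *Ndufa3* led at -6.06, followed by *Ndufv1*, the subunit that binds NADH, at -5.57 and *Ndufb10* at -5.13. *Uqcr10*, a small subunit of complex III, was -0.15, 0.03 and 1.10 in T0 and -2.98 and -6.90 in the liver, a change of -5.27 ± 0.92 (adjusted p = 5.28e-05). Its liver libraries were thus almost 4 units apart. *Uqcrb* changed by -4.77 and *Uqcrc1* by -4.10, both in complex III. Of the ATP synthase, the head subunits *Atp5b* and *Atp5a1* changed by -5.96 and -4.77, and the central stalk subunit *Atp5c1* by -5.43.

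Succinate dehydrogenase, which belongs both to the respiratory chain and to the TCA cycle, had 3 of its 4 subunits lower. *Sdha*, the flavoprotein subunit that oxidises succinate, was 0.07, 0.34 and 0.67 in T0 and -5.69 and -6.47 in the liver, a change of -6.44 ± 0.94 (adjusted p = 4.68e-06). *Sdhc*, a membrane anchor, changed by -4.49 and *Sdhb*, the iron-sulfur subunit, by -4.41. *Sdhd*, the other anchor, was at -2.05 with all 5 of its sgRNAs lower, and was not called (adjusted p = 0.131).

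In the rest of central carbon metabolism a minority of genes fell. Of 22 genes of the TCA cycle and pyruvate entry, 5 were lower (22.7%, beside 13.1% of all genes) and the list median was -0.61. They were *Dlst* at -5.94, *Ogdh* at -5.73 and *Dld* at -4.67, which form the 2-oxoglutarate dehydrogenase complex, *Idh3a* at -2.83, of the NAD-linked isocitrate dehydrogenase, and *Fh1* at -2.71, fumarate hydratase. *Dld* lost its call without liver replicate 3 (adjusted p = 0.0569), *Idh3a* without liver replicate 3, T0 replicate 1 or T0 replicate 3 (0.0595 to 0.473), and *Fh1* without any one of the 5 libraries (0.0582 to 0.468). Glycolysis had 6 of 23 genes lower (26.1%) and a median of -0.65. *Tpi1*, triose phosphate isomerase, was -0.52, 0.03 and 0.17 in T0 and -5.63 and -7.07 in the liver, a change of -6.24 ± 0.87 (adjusted p = 2.05e-06). *Aldoa* changed by -5.72, *Pkm* by -4.80, *Pgam1* by -4.70, *Gapdh* by -3.50 and *Pgk1* by -3.32, enzymes of the steps from aldolase to pyruvate kinase. *Pkm*, pyruvate kinase, was -2.69 and -6.61 in liver replicates 2 and 3 and lost its call without replicate 3 (change -2.84, adjusted p = 0.176), as did *Gapdh* (-3.09, 0.142) and *Pgk1* (-2.84, 0.148). Sequences close to *Gapdh* are present elsewhere in the mouse genome, and its sgRNAs and those of the pseudogene *Gapdh-ps15*, at -6.35, may cut at both, so these values are uncertain.

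The pentose phosphate pathway, which supplies ribose and NADPH, had 5 of 10 genes lower with a median of -3.11: *Pgd* at -5.50, *Tkt* at -4.90, *Rpia* at -4.70, *G6pdx* at -4.15 and *Rpe* at -3.50. *Rpe* lost its call without liver replicate 3 (adjusted p = 0.45) or T0 replicate 3 (0.0769). Nucleotide supply followed the same direction. Purine synthesis had 11 of 18 genes lower with a median of -3.74, and *Ppat*, which commits the pathway, was -0.23, 0.17 and 0.89 in T0 and -6.61 and -5.01 in the liver, a change of -6.08 ± 0.74 (adjusted p = 2.1e-07). *Paics* changed by -5.84 and *Adsl* by -5.55, both in the same pathway. *Impdh2*, which directs purines to GTP, changed by -3.30 (adjusted p = 0.000713).

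Pyrimidine and dNTP synthesis had 8 of 25 genes lower (32%, beside 13.1% of all genes) with a median of -1.16. Both subunits of ribonucleotide reductase, which makes deoxyribonucleotides, led the list. *Rrm1* was -0.23, -0.14 and 0.91 in T0 and -6.68 and -7.19 in the liver, a change of -7.11 ± 0.75 (adjusted p = 2.14e-08), with all 5 sgRNAs under a signal of 10 in both liver libraries. *Rrm2* changed by -6.14 and *Dut*, which removes dUTP, by -6.13. DNA polymerases and primase had 9 of 12 genes lower with a median of -3.71: *Pole*, the leading-strand polymerase, changed by -6.18, *Pola1* by -5.85 and *Prim1*, primase, by -5.15. The 3 not called were the accessory subunits *Pold4* at -0.82, *Pole4* at -0.39 and *Pole3* at -0.11, named after their values were seen.

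Of the serine, folate and methionine cycle 5 of 21 genes were lower (23.8%, beside 13.1% of all genes) and the median was -0.63. *Mat2a*, which makes S-adenosylmethionine, was -1.10, -0.45 and 0.72 in T0 and -6.70 and -7.19 in the liver, a change of -6.66 ± 0.75 (adjusted p = 6.88e-08). Its T0 levels were themselves spread over almost 2 units. Among the others were *Ahcy*, which clears S-adenosylhomocysteine, at -4.81, *Mthfd1* at -4.76 and *Fpgs*, which retains folates in the cell, at -2.99. *Mthfd1* was not called without liver replicate 3 (adjusted p = 0.0579), nor *Fpgs* without liver replicate 3 or any T0 replicate (0.0546 to 0.482). None of the 8 genes of polyamine and hypusine synthesis was called, and *Amd1*, which commits S-adenosylmethionine to polyamines, was lowest at -1.81 (adjusted p = 0.31).

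**Figure D3:**
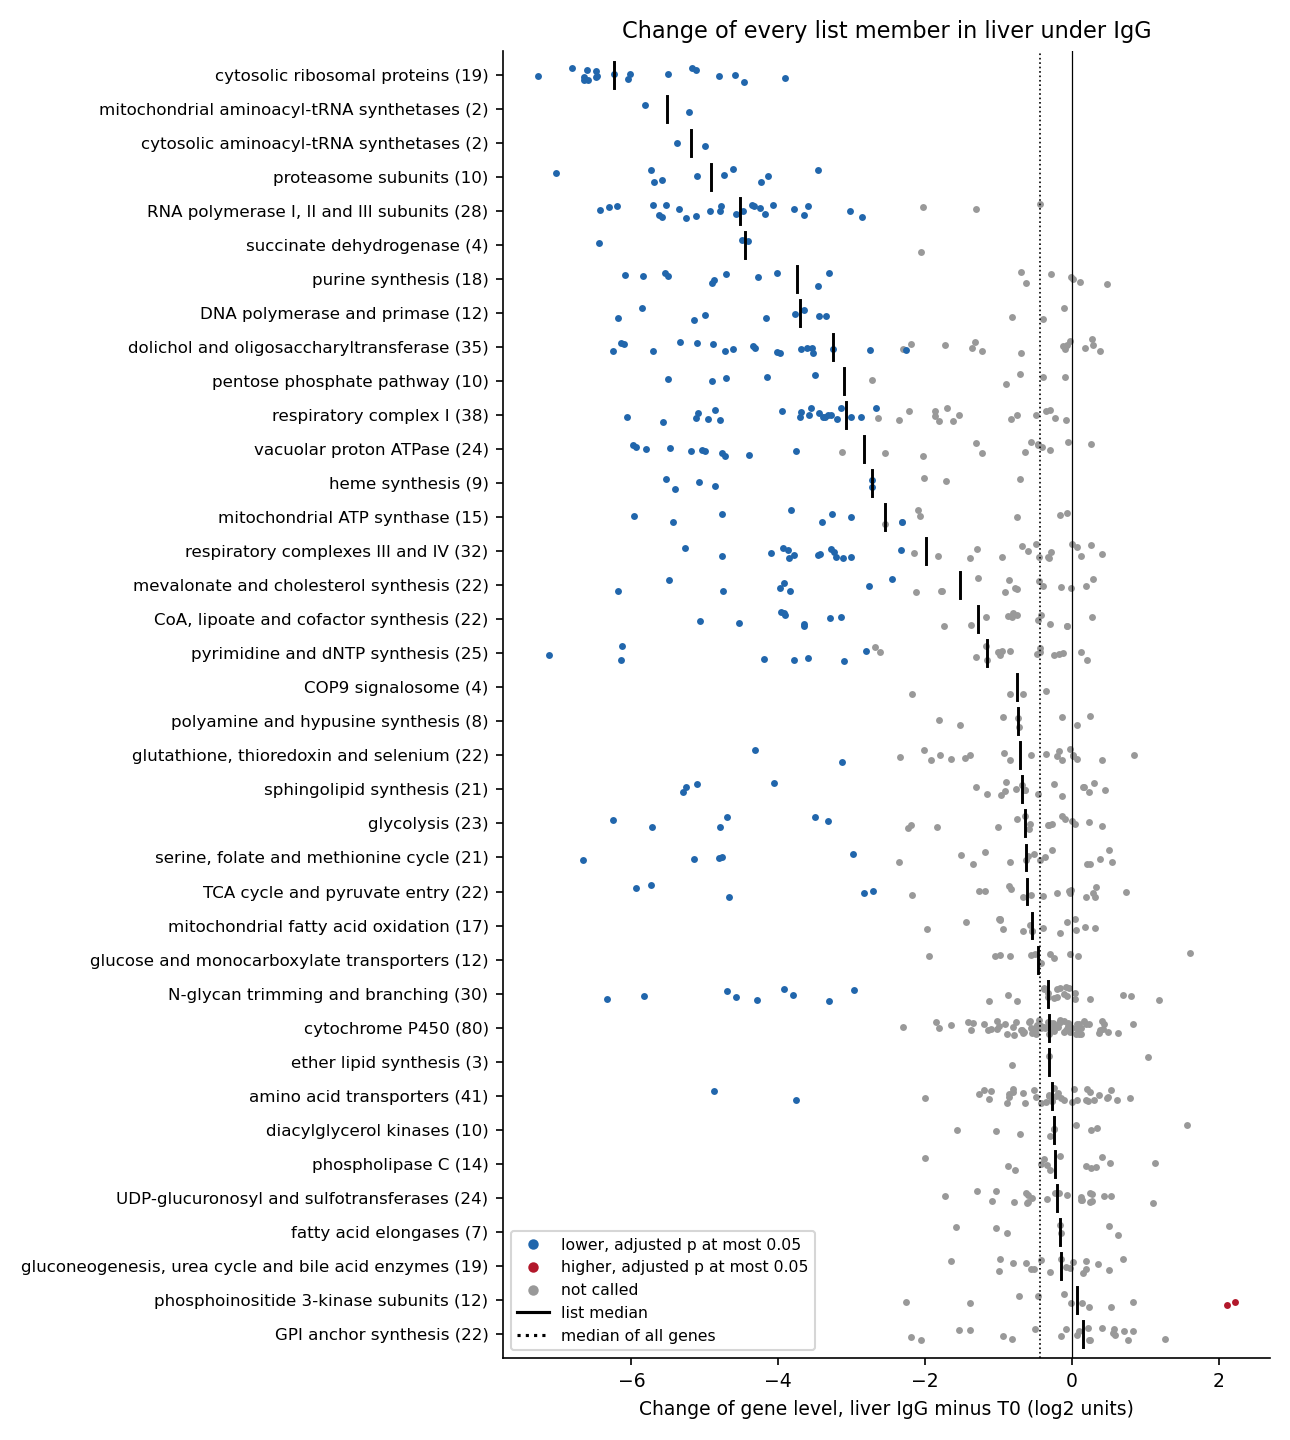
Change of every member of 38 gene lists in liver IgG against T0, in log2 units, 1 point a gene, with the number of members in brackets and lists ordered by their median; blue members were called lower, red higher and grey neither. The black bar is the list median and the dotted line the median of all genes, -0.44; lists at the top, such as the 19 ribosomal protein genes at -6.24, lie far below that line, and lists such as the 80 cytochrome P450 genes at -0.31 lie beside it.

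Cofactors and lipids gave mixed results. Heme synthesis had 6 of 9 genes lower with a median of -2.72. *Fech*, ferrochelatase, changed by -5.53, *Urod* by -5.40 and *Alas1*, the first enzyme in most cells, by -5.08, while the erythroid form *Alas2* was at -0.71 (adjusted p = 0.833). The other 2 not called were *Uros* at -2.01 and *Ppox* at -1.71. CoA, lipoate and other cofactors had 9 of 22 lower (40.9%, beside 13.1% of all genes) with a median of -1.27. Among them were *Lipt1*, a lipoyl transferase, at -5.07, and *Ppcs* at -4.54 and *Coasy* at -3.97, both of CoA synthesis. Of glutathione, thioredoxin and selenium genes 2 of 22 were lower (9.09%, beside 13.1% of all genes), *Sepsecs* at -4.32 and *Sephs2* at -3.13. Both make selenocysteine, and *Sephs2* lost its call when any one of 4 libraries was left out (both liver libraries and T0 replicates 2 and 3, adjusted p from 0.075 to 0.183).

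Mevalonate and cholesterol synthesis had 8 of 22 genes lower (36.4%, beside 13.1% of all genes) with a median of -1.52. *Hmgcs1*, HMG-CoA synthase, was -0.18, -0.01 and 0.64 in T0 and -5.90 and -6.16 in the liver, a change of -6.18 ± 0.90 (adjusted p = 4.15e-06). *Ggps1*, which makes the lipid that anchors many small GTPases, changed by -5.49 and *Mvk* by -4.75. In sphingolipid synthesis 4 of 21 genes fell (19.0%, beside 13.1% of all genes). They were *Sptlc2* at -5.30 and *Sptlc1* at -5.10, the subunits of serine palmitoyltransferase, *Kdsr* at -5.26, the next enzyme, and *Ugcg* at -4.06. *Ugcg* makes glucosylceramide and was not called without liver replicate 2 (adjusted p = 0.136). The list median was -0.68. None of the 17 genes of mitochondrial fatty acid oxidation, the 7 elongases or the 3 ether lipid genes was called. *Hadha*, of the trifunctional protein of fatty acid oxidation, was lowest among them at -1.98 (adjusted p = 0.132). Before adjustment 1 fatty acid oxidation gene and 1 elongase were lower at p under 0.05.

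The vacuolar proton ATPase, which acidifies lysosomes and the Golgi, had 11 of 24 genes lower with a median of -2.84. *Atp6v0c*, of its proton-conducting ring, was -0.91, -0.49 and 0.41 in T0 and -6.70 and -5.90 in the liver, a change of -5.98 ± 0.71 (adjusted p = 1.74e-07). *Atp6ap1*, an accessory subunit, changed by -5.93 and *Atp6v1b2* by -5.80. The dolichol pathway, which builds the N-glycan precursor and transfers it to proteins, had 20 of 35 genes lower with a median of -3.26. *Alg13*, a subunit of the enzyme that adds the second sugar, was -0.93, -0.66 and 0.22 in T0 and -6.23 and -7.19 in the liver, a change of -6.25 ± 0.62 (adjusted p = 9.67e-09). *Gfpt1*, which opens hexosamine synthesis, changed by -6.14 and the mannosyltransferase *Alg2* by -6.10.

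Of 30 genes of N-glycan trimming and branching 9 fell (30%, beside 13.1% of all genes), while the list median was -0.32. *Mgat1*, which starts complex N-glycans, was -0.59, -0.12 and 0.54 in T0 and -5.75 and -7.04 in the liver, a change of -6.34 ± 0.76 (adjusted p = 1.77e-07). *Slc35a2*, the Golgi UDP-galactose transporter, changed by -5.82 and the galactosyltransferase *B4galt5* by -4.70. At the other end of the list *B3gnt2*, which extends poly-N-acetyllactosamine chains, was 0.78, 0.74 and 0.23 in T0 and 2.33 and 1.21 in the liver. Both liver libraries lay above T0, as in 7.6% of all genes, and its change of 1.19 ± 0.69 was not called (adjusted p = 0.459). None of the 22 GPI anchor genes was called, beside 13.1% of all genes called lower, and their median was 0.16, or -0.775 with values as deposited. The lowest were *Pigt* at -2.19 (adjusted p = 0.224) and *Gpaa1* at -2.05 (adjusted p = 0.132), both of the transamidase that attaches the anchor, and these 2 were the only members of the list with an unadjusted p under 0.05.

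Of 41 amino acid transporters 2 fell (4.88%, beside 13.1% of all genes), and they form a single transporter. *Slc3a2*, the heavy chain CD98, was 0.07, 0.18 and 0.74 in T0 and -3.57 and -5.51 in the liver, a change of -4.87 ± 0.80 (adjusted p = 2.28e-05). *Slc7a5*, the light chain LAT1, changed by -3.76 ± 0.75 (adjusted p = 0.000283). Under 18 alternatives in processing, *Slc3a2* stayed called in 17 and *Slc7a5* in 16, with adjusted p up to 0.0826 and 0.427. *Slc38a1*, a glutamine transporter, was at -1.997 with both liver libraries at -2.02 and was not called (adjusted p = 0.0776). None of the 12 glucose and monocarboxylate transporters was called, *Slc16a1*, the lactate carrier MCT1, being lowest at -1.95 (adjusted p = 0.149). Outside these lists, and chosen after their values were seen, *Slc19a1*, the reduced folate carrier, changed by -3.65 ± 0.89 (adjusted p = 0.00295), and *Slc20a1*, a phosphate transporter, by -2.82 ± 0.66 (adjusted p = 0.00178). All 5 sgRNAs of each were lower than in T0. With the median of the sgRNAs in place of their mean neither was called (adjusted p = 0.382 for *Slc19a1* and 0.695 for *Slc20a1*), nor was *Slc20a1* with the lymph node libraries in the fit (adjusted p = 0.215).

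In lists of pathways best known from the liver, not all of whose members are hepatocyte genes, no gene passed the limma test. The counts were 0 of 80 cytochrome P450 genes, 0 of 24 UDP-glucuronosyl and sulfotransferases, and 0 of 19 enzymes of gluconeogenesis, the urea cycle and bile acid synthesis. Of all genes 13.1% were called lower. Their median changes of -0.31, -0.20 and -0.16 lay near that of all genes, and each turned sign under at least 1 alternative. Before adjustment 5, 0 and 1 of these genes were lower at p under 0.05, beside 369 of all 2078 genes, and none was higher. The lowest member of each list was far lower in liver replicate 3 than in replicate 2: *Cyp2a5* was at -0.89 and -3.93 in replicates 2 and 3 (change -2.30, adjusted p = 0.0737), *Ugt1a1* at -0.36 and -2.35, and *Arg2*, the mitochondrial arginase, at -0.34 and -2.51.

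The 2 genes that rose encode subunits of PI3K. PI3K-delta, a dimer of p110-delta and a regulatory subunit, makes the lipid signal that activates Akt after T cell receptor engagement. *Pik3cd* was 0.47, 0.46 and -0.61 in T0 replicates 1, 2 and 3 and 3.11 and 1.53 in liver replicates 2 and 3. Both liver libraries lay above every T0 library, as in 7.6% of all genes, and the change was 2.22 ± 0.68 (adjusted p = 0.0239). *Pik3r1* was 0.72, 0.47 and -0.04 in T0 and 2.79 and 2.22 in the liver, a change of 2.12 ± 0.54 (adjusted p = 0.00497). All 5 sgRNAs of either gene were higher relative to the nontargeting sgRNAs, with changes from 1.31 to 3.12 for *Pik3cd* and from 1.65 to 3.19 for *Pik3r1*. The changes of the nontargeting sgRNAs themselves lay between -2.37 and 1.66 from their 5th to their 95th percentile, and 3.56% of all gene-specific sgRNAs exceeded that upper value. The *Pik3cd* sgRNA with the largest change was also the most common one at the start, with signals of 1479, 1186 and 353 in T0 and of 4897 and 3085 in the liver.

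These increases rest on few libraries and on how the values were processed. Of 18 alternatives, *Pik3cd* stayed called in 12 and *Pik3r1* in 15, and not every lost call is listed here. Without liver replicate 2 neither was called (*Pik3cd* 1.43, adjusted p = 0.444, and *Pik3r1* 1.83, adjusted p = 0.0914), and without T0 replicate 3 *Pik3cd* was not (1.86, adjusted p = 0.15). With values as deposited, which moved the median of all genes to -1.37, the changes were 1.29 and 1.18 and were not called, and neither gene was called when the lymph node libraries joined the fit (adjusted p = 0.583 and 0.251). In the liver anti-PD-1 library the level minus the T0 mean was 4.07 for *Pik3cd* and 3.004 for *Pik3r1*, both above the value of either liver IgG library. The same quantity was 1.37 and 0.996 in the primary tumour and 2.86 and 1.85 in the spleen of IgG-treated mice, and all of these share the T0 libraries.

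The other 10 PI3K genes had changes between -2.25 and 0.83, and none was called. *Pik3c3*, the class III enzyme of autophagy and endosomes, was lowest at -2.25 (adjusted p = 0.158). Both liver libraries lay below T0 for it, as in 45.7% of all genes. *Pik3cg*, the catalytic subunit downstream of G-protein-coupled receptors, was at -1.39 (adjusted p = 0.29).

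**Figure D4:**
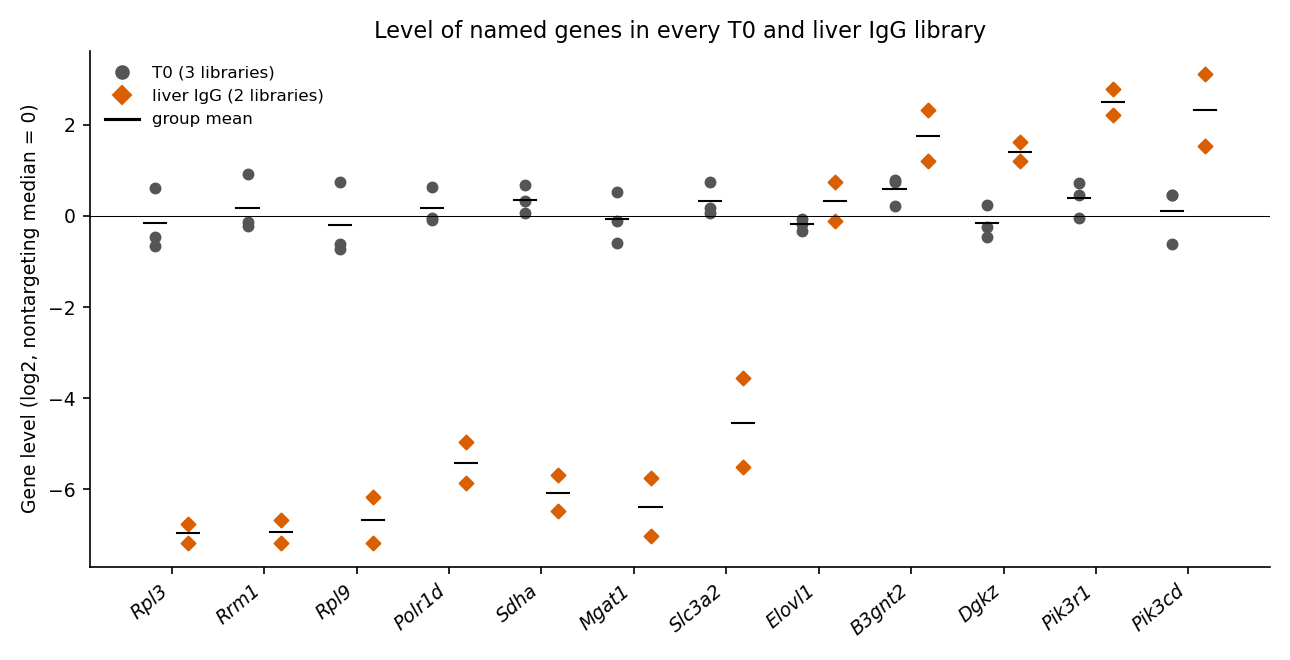
Level of 12 named genes in every T0 library (grey circles) and every liver IgG library (orange diamonds), in log2 units with the nontargeting median of the library at 0; short bars are group means. The liver values of *Rpl3*, *Rrm1*, *Rpl9*, *Polr1d*, *Sdha*, *Mgat1* and *Slc3a2* lie below -3, those of *Elovl1* overlap T0, and those of *Pik3r1* and *Pik3cd* lie above 1.5.

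The next increases did not pass the test. *Dgkz*, the diacylglycerol kinase that ends diacylglycerol signalling in T cells, was 0.24, -0.23 and -0.46 in T0 and 1.63 and 1.20 in the liver, a change of 1.56 ± 0.63 (adjusted p = 0.124). All 5 *Dgkz* sgRNAs were higher, but in liver replicate 3 a single one held a signal of 4575 and the other 4 held 72.5 to 579. Of the other 9 diacylglycerol kinases none was called, and *Dgkq* was lowest at -1.57 (adjusted p = 0.14). *Plcg1*, the phospholipase that makes diacylglycerol after receptor engagement, was at -2.003 (adjusted p = 0.108), and none of the 14 phospholipase C genes was called.

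Other genes among the 12 largest increases were *Mtm1*, a phosphoinositide phosphatase, at 1.35, *Rhbg*, an ammonium transporter, at 1.32, *Cept1*, which completes phosphatidylcholine and phosphatidylethanolamine, at 1.32, *Acsl5*, which activates fatty acids, at 1.29, *Pigp*, of GPI anchor synthesis, at 1.27, *Pla2g4e*, a phospholipase A2, at 1.23, *Slc15a4*, a lysosomal histidine and peptide carrier, at 1.21, and *B3gnt2*. Their adjusted p ran from 0.266 for *Mtm1* to 0.675 for *Slc15a4*. *Elovl1*, which elongates saturated very-long-chain fatty acids, was -0.06, -0.17 and -0.32 in T0 and -0.11 and 0.76 in the liver. The groups overlapped, and the change of 0.51 ± 0.66 was not called (adjusted p = 0.933). Of its 5 sgRNAs 3 were higher and 2 lower. *Elovl2* was the lowest elongase at -1.58 (adjusted p = 0.178).

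Liver IgG was then set against the primary tumour and spleen of IgG-treated mice and against the liver under anti-PD-1, within the same limma fit, to see where its losses differed from those of other organs. No gene passed the test in any of these: the share called was 0% in either direction against each group, and the smallest adjusted p was 0.999 against the primary tumour, 0.238 against the spleen and 0.997 against liver anti-PD-1. Before adjustment, 15 genes were lower and 8 higher than in the tumour, 23 lower and 35 higher than in the spleen, and 40 lower and 16 higher than in liver anti-PD-1 at p under 0.05. With 2 liver libraries, and 1 under anti-PD-1, only large differences could have been called, so a missing call does not show that the groups were alike. Over all genes the median difference of liver IgG was -0.08 from the tumour, 0.07 from the spleen and -0.24 from liver anti-PD-1. For ribosomal proteins, with a median change of -6.24 against T0, the median difference was -0.19, 0.05 and -0.52 in the same order. For N-glycan trimming and branching, with a median change of -0.32 against T0, it was -0.29, 0.05 and -0.78, so that the difference from liver anti-PD-1 was larger than the change itself. For amino acid transporters, which changed by -0.28 in the median, it was 0.04, 0.16 and -0.41.

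The largest positive differences from the spleen included both genes of core 1 O-glycan synthesis. *C1galt1*, the galactosyltransferase that makes the core 1 O-glycan, was -0.01 and 0.91 in liver IgG and -3.16, -3.65 and -2.94 in spleen IgG, a difference of 3.70 ± 0.84 (SE, adjusted p = 0.238), which passed the threshold with log2(value + 10) in place of log2(value + 1) (2.65, adjusted p = 0.0158). Both liver libraries lay above all 3 spleen libraries, as they did in 9.72% of all genes. Against T0 *C1galt1* was at 0.17 in the liver (adjusted p = 0.998). *C1galt1c1*, its chaperone, was -2.26 and -1.29 in liver IgG and -6.08, -6.12 and -3.61 in the spleen, a difference of 3.49 ± 0.99 (adjusted p = 0.905). *Nans*, which makes sialic acid, differed by 2.77 ± 0.86 (adjusted p = 0.988). The largest differences the other way were *Slc3a2* at -2.43, *Sdha* at -2.27 and *Rrm1* at -2.23 (adjusted p = 0.988 for each), with no overlap between the libraries, which 9.43% of all genes showed in that direction.

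Against the primary tumour, *C1galt1* was again higher, by 2.09 ± 0.84, with tumour levels of -1.63, -1.70 and -1.59. *Alg6*, a glucosyltransferase of the dolichol pathway, was higher by 1.92 ± 0.93. The lowest were *Psmd11*, of the proteasome cap, at -2.74 ± 0.99 with liver levels of -3.97 and -6.12 and tumour levels of -2.63, -1.76 and -2.52, then *Sdha* at -2.43 ± 0.94 and *Akr1b7*, an aldo-keto reductase, at -1.88 ± 0.88. The adjusted p was 0.999 for these 5 genes. Liver libraries were above every tumour library in 9.91% and below every one in 15.6% of all genes.

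Against the single liver anti-PD-1 library, whose own spread is assumed in the fit to be that of the other groups, *Polr2a*, the largest subunit of RNA polymerase II, was -3.30 and -4.18 under IgG and -0.19 under anti-PD-1, a difference of -3.55 ± 1.10. *C1galt1c1* differed by -3.41 ± 1.33, with a level of 1.64 under anti-PD-1, and *Psmc1*, a proteasome ATPase, by -2.96 ± 1.49, with liver IgG levels of -2.85 and -5.92. Against T0 *Psmc1* was not called without liver replicate 3 (adjusted p = 0.431). Higher under IgG were *Slc35c1*, the Golgi GDP-fucose transporter, at -0.12 and 0.14 against -3.39 (3.40 ± 1.13), *Glud1*, glutamate dehydrogenase, by 2.99 ± 1.14 and *Slc13a3*, a dicarboxylate transporter, by 2.92 ± 1.04. The adjusted p was 0.997 for all 6. *Elovl1* was 1.94 in the anti-PD-1 library, a difference of -1.61 ± 0.88 that was not called (adjusted p = 0.997).

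**Figure D5:**
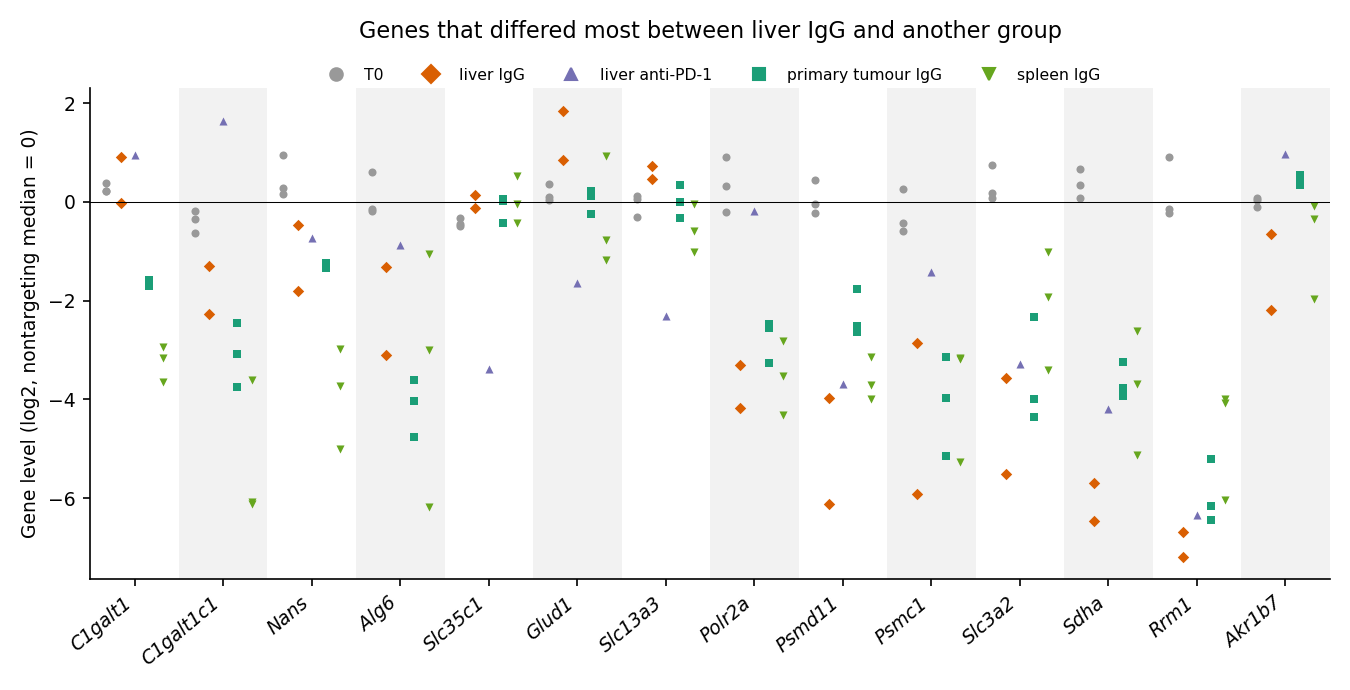
Level in every library of T0, liver IgG, liver anti-PD-1, primary tumour IgG and spleen IgG for 14 genes with the largest differences between liver IgG and 1 of the other 3 organ groups, in log2 units with the nontargeting median at 0. *C1galt1* is at -0.01 and 0.91 in the liver IgG libraries and at or below -1.59 in all tumour and spleen libraries, and *Slc35c1* is low in the liver anti-PD-1 library.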

How the data were processed

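sgRNA sequences in genomic DNA were amplified and sequenced. According to the labels and the methods of the study, the authors counted sgRNAs with MAGeCK, scaled the counts to the 250 nontargeting sgRNAs, and applied ComBat to remove batch effects that separate the organs. The deposited signal is this normalised and corrected abundance per sgRNA; 93.0% of values are not whole, so no count model was used, depth is unknown, and how far ComBat moved liver against T0 cannot be read from the file. Of 43 samples, 2 that the authors excluded carry no values. Samples were grouped by their titles.

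Here each value was taken as log2(value + 1), centred on the nontargeting median of its library and averaged over the 5 sgRNAs of a gene. R 4.3.3 and limma 3.58.1 (lmFit, eBayes) fitted 29 libraries of 11 groups with 1 mean each (residual degrees of freedom 18, prior 12.6). The 12 lymph node libraries were left out because in each of them most sgRNAs have a signal under 10. p-values are two-sided and were adjusted over 2078 genes by the Benjamini-Hochberg method. The code was tested on simulated data. Figures were drawn with matplotlib 3.10.9.

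The members and gene lists were chosen with earlier results of these data known. The 38 lists were matched by symbol without regard to values. Genes were named by rule: 7 that the study names for this screen, the 12 largest changes in each direction with at least 4 sgRNAs in that direction, 3 lowest and 1 highest of each list, and 3 largest differences in each direction from each other group. Any other gene was named after its values were seen. Some genes that the rule selects are not reported here. Coordinates are not given, because no genome build is named for the screen in the sources used here. Alternatives changed the libraries fitted, pseudocount, sgRNA summary, centring, filter, spread, block and prior, and left out each library.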

Additional observations from a re-analysis of the deposited data

How the results depend on the processing

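The comparison with T0 was repeated under 18 alternatives, 2 of them chosen after seeing the data (leaving out the lowest 10% of T0 sgRNAs, and setting shared lowest values to 0). Of 117 called genes followed, 46 stayed past the threshold in every alternative that gave them a value. With the sgRNA median 35 of the 117 lost their call, and not every such loss is given with the gene above. In place of 272 lower and 2 higher genes, a fit of both groups alone gave 488 and 10, values as deposited 476 and 0, the sgRNA median 147 lower, and leaving out the lowest 10% of sgRNAs 9 and 1. The last removes depleted sgRNAs by construction and dropped 64 genes entirely. Higher genes numbered 0 with the lymph node libraries in the fit, 4 with log2(value + 10), 4 with the nontargeting mean and 4 with the median of all sgRNAs as centre, which placed the median of all genes at 0.03. Leaving out 1 library gave 199 to 251 lower and 0 to 2 higher genes. With replicate number as a block, 277 genes were lower, 268 of the 272 among them, and the same 2 were higher. Deviations from the group means correlated over genes at -0.27 for replicate 2 and -0.15 for replicate 3. With 2 pairs this does not settle whether same-numbered samples share a culture or a sequencing run. Between organs, the block and log2(value + 10) each called 1 gene higher than in the spleen, *C1galt1* in either case, and the sgRNA median called 1 gene lower than in the primary tumour and 2 lower than in liver anti-PD-1. The single liver anti-PD-1 library could not be left out.

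Directions against T0 turned for genes near 0 or with few sgRNAs left, and the cause was not tested. With values as deposited they were -0.76 for *C1galt1*, -0.42 for *Elovl1*, -0.28 for *Slc13a3* and -0.51 for *Slc35c1*. With the lowest 10% of sgRNAs left out they were 0.25 for *C1galt1c1*, 0.31 for *Copz1*, 0.059 for *Dld*, 1.25 for *Polr3f* and 0.0509 for *Psmc1*. Centred on the median of all sgRNAs they were 0.35 for *Pole3*, 0.0716 for *Pole4* and 0.0232 for *Polr3gl*, and on the nontargeting mean 0.0869 for *Pole3*. Leaving out 1 library moved *C1galt1* between -0.29 and 0.63, *Pold4* between -1.90 and 0.26, *Pole3* between -0.36 and 0.13 and *Pole4* between -1.35 and 0.57.

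Precision is limited by 2 liver libraries, by the wide nontargeting spread in them, and by unknown depth. Levels cannot go below -6.97 in liver replicate 2 and -7.19 in replicate 3, so the size of the largest decreases is bounded.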

Other observations

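Of the 272 genes that were lower in liver IgG than in T0, 226 belong to one of the 38 lists and 46 to none. Those 46 were looked at after their values were seen. Uncalled genes of the same kinds were not counted, so no group named below is shown to be lost as a whole. Genes of vesicle coats and secretion were among them, with *Copa* at -6.03 ± 0.92 (SE, limma, adjusted p = 8.07e-06), *Copz1* at -3.23 and *Copb1* at -2.65, all of the COPI coat (not called without liver replicate 3 for *Copz1*, adjusted p = 0.148, and without liver replicate 2 for *Copb1*, 0.162), *Nsf*, which recycles SNARE complexes, at -4.40, and *Spcs3* and *Spcs2*, of signal peptidase, at -4.46 and -4.11. The nuclear pore gave *Nup93* at -5.94 and *Nup205* at -5.13. *Copa* was 0.31, 0.00 and 1.72 in T0 and -4.49 and -6.22 in the liver.

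Sugar nucleotides and lipid signalling were also represented. *Gmppb*, which makes GDP-mannose, was at -5.97, *Gne* and *Cmas*, both of sialic acid synthesis, at -4.35 and -3.03, and *Ogt*, the O-GlcNAc transferase, at -3.52. *Cdipt*, which makes phosphatidylinositol, was at -5.70 ± 0.71 (adjusted p = 3.28e-07), *Pi4kb*, a phosphatidylinositol kinase, at -4.37 and *Itpkb*, an inositol trisphosphate kinase, at -3.17. *Gne* was not called without liver replicate 3 (adjusted p = 0.0714), nor *Cmas* without liver replicate 2 (0.151), nor *Itpkb* without liver replicate 2 (0.266) or T0 replicate 3 (0.0787). Mitochondrial genes outside the lists included *Nfs1*, of iron-sulfur cluster assembly, at -5.19 and the phospholipid enzymes *Pgs1* at -4.22 and *Pisd* at -3.97. *Fnta*, a subunit of the protein prenyltransferases, was at -5.80. Of chromatin enzymes, *Dnmt1*, the maintenance DNA methyltransferase, was at -4.67 and *Kmt2a*, a histone methyltransferase, at -3.33.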
